A study of Mus musculus with 4 samples.

Results

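The genes described here are the axon guidance ligands and receptors of mouse brain endothelium, counted in embryonic libraries with and without Cre-mediated deletion of Ucp2. They were chosen by name alone, as the protein-coding genes of 8 families, and 58 of the 20194 genes in the deposited tables met that rule. They comprise 17 semaphorins, 8 ephrins, 3 Slits and 2 netrins as the ligands, and 9 plexins, 12 Eph receptors, 4 Robos and 3 Unc5 receptors as the receptors. The study took brain endothelial cells of C57BL/6 embryos at embryonic days 18 and 15 (E18 and E15). The embryos called ECKO carried the genotype UCP2f/f;Tie2-cre, in which the Tie2 promoter drives Cre recombinase in endothelial cells and in most blood cells, and the others were labelled wild type (WT). Each of the 4 groups, ECKO E18, WT E18, ECKO E15 and WT E15, held 1 library, so a ratio between groups compares a pair of libraries and has no replicate check. The sources used here do not say whether a library pooled several embryos or how the cells were isolated.

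Guidance cues steer growing axons by attraction or repulsion, and blood vessels use the same families as they sprout and branch. Semaphorins signal through plexins, often with neuropilins as coreceptors, ephrins bind Eph receptor tyrosine kinases on neighbouring cells, Slits bind Robo receptors, and netrins bind Dcc and Unc5 receptors. Pairs often named in vessels are Sema3e with Plxnd1 and the arterial ephrin Efnb2 with the venous receptor Ephb4. Slit2 with the endothelial receptor Robo4 and the netrins with Unc5b are others. Binding within these pairs was not tested here. Sema3e and Ntn4 were not analysed here.

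Reads in listed genes numbered 21992660 and 19075407 in the ECKO and WT libraries at E18, and 16328300 and 15542930 in the ECKO and WT libraries at E15. Counts were scaled to these totals and are given in CPM, the usual unit of counts per fixed library total, so that 1 read was worth between 0.0455 and 0.0643 CPM. Ucp2 itself had 3296 reads in the ECKO library and 6696 in the WT library at E18 (log2 ratio -1.22, 95% interval -1.29 to -1.17), and 2666 in the ECKO library and 4285 in the WT library at E15 (log2 ratio -0.75, interval -0.83 to -0.69). It was lower in the ECKO libraries at both stages and present in all 4. All 16 endothelial marker genes were detected in every library, with summed levels of 35071, 35469, 35426 and 32663 CPM in ECKO E18, WT E18, ECKO E15 and WT E15. Robo4 is on that marker list as well as among the guidance genes. Mural markers summed to 11677, 9355, 4893 and 7332 CPM in the same order. The levels below therefore cannot be assigned to endothelial cells alone. The X-inactivation transcript Xist had 547 and 0 reads in the ECKO and WT libraries at E18, where the Y-linked gene Ddx3y had 0 and 5826, so that genotype and sex cannot be told apart at E18. At E15 both libraries held Xist reads, 2109 in ECKO and 2549 in WT, so that stage and sex cannot be told apart in the WT libraries.

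The guidance genes spanned more than 3 orders of magnitude, and a single gene, Robo4, stood far above the rest. Levels are compared between genes as CPM per kb of exon. Of the 58 genes, 52 were listed at both stages, 5 at E15 only and 1 at E18 only (Ephb3). A mean of at least 1 CPM per kb was reached by 25 of the 58, and a mean of at least 10 CPM per kb by 9. Those 9 include a member of every receptor family: Robo4, Plxnd1, Ephb4, Epha2 and Unc5b, beside the ligands Sema6a, Sema6d, Sema3g and Efna1. At the other end, 8 genes averaged under 0.1 CPM per kb. Libraries with 0 reads occurred for 4 genes in ECKO E18 (Ephb6, Ntn5, Sema3b and Unc5a) and 2 in ECKO E15 (Epha5 and Ntn5), and a count of 0 allows up to 3 reads, or 0.136 and 0.184 CPM. In the WT libraries 0 of the listed guidance genes were without reads.

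**Figure D1:**
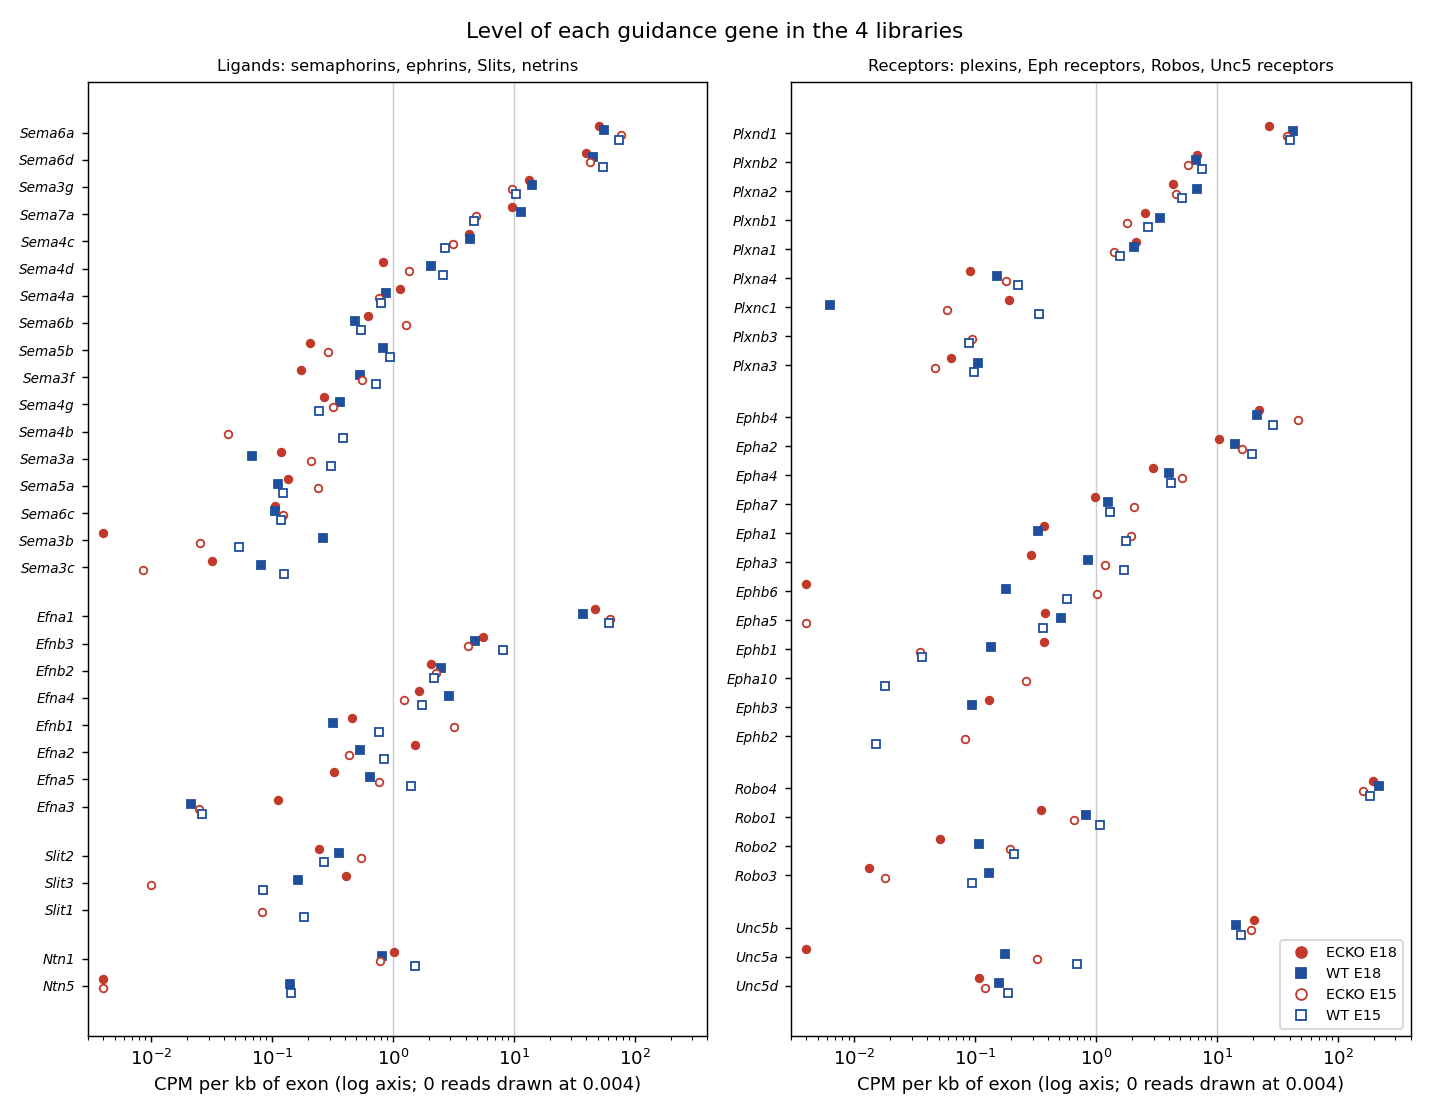
Level of each guidance gene in the 4 libraries, in CPM per kb of exon on a log axis, with ligands on the left and receptors on the right and genes grouped by family from highest to lowest mean. Filled marks are E18, open marks E15, red circles ECKO and blue squares WT, and a gene with 0 reads is drawn at 0.004. Robo4 lies between 161 and 218 CPM per kb in all 4 libraries, and 9 of the 58 genes average at least 10 CPM per kb.

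Robo4, the Robo receptor restricted largely to endothelium (GRCm38 chromosome 9, 37401897 to 37415115, plus strand), was the most abundant guidance gene in every library. It had 22640 and 22049 reads in the ECKO and WT libraries at E18, and 13953 and 15294 in those at E15. Per length these are 194, 218, 161 and 186 CPM per kb, an average of 190 ± 23.5 (SD over the 4 libraries, each of another group). Robo4 ranked 184 and 154 of 13902 protein-coding genes in the ECKO and WT libraries at E18, and 227 and 179 of 14384 at E15. It made up 99.3%, 98.6%, 98.4% and 97.8% of all Robo reads in ECKO E18, WT E18, ECKO E15 and WT E15. Robo1, the receptor best known from commissural axons, had 128, 261, 178 and 276 reads in the same order, an average of 0.729 CPM per kb. Robo3 ends 553 bases from the end of Robo4, on the opposite strand, and averaged 0.0638 CPM per kb. The sources used here do not say whether the counting took account of strand.

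Among the other receptor families 1 gene again had the most reads, with shares from 43.3% (Ephb4, WT E18) to 99.2% (Unc5b, ECKO E18). These shares are of the reads of genes listed at both stages. Plxnd1, the endothelial plexin that binds Sema3e (chromosome 6, 115954811 to 115995005, minus strand), had 4339 and 5922 reads in the ECKO and WT libraries at E18 and 4565 and 4567 at E15, a mean of 37.0 ± 6.89 CPM per kb. Plxnb2, a receptor of class 4 semaphorins and second of the plexins per length, had 1165, 999, 724 and 897 reads in ECKO E18, WT E18, ECKO E15 and WT E15, a mean of 6.72 CPM per kb. By reads Plxna2, whose exons are longer, was second with 1634, 2254, 1288 and 1384. Plxnd1 made up between 53.0% and 64.1% of plexin reads in the 4 libraries. Ephb4, the venous receptor of Efnb2 (chromosome 5, 137350109 to 137378669, plus strand), had 2274 reads in ECKO and 1889 in WT at E18, and 3580 in ECKO and 2090 in WT at E15. Its mean was 30.0 ± 12 CPM per kb, with the highest level, 47.3, in ECKO E15. Epha2, a receptor of Efna1, had 1070, 1257, 1235 and 1422 reads in ECKO E18, WT E18, ECKO E15 and WT E15 and a mean of 15.1 ± 3.84 CPM per kb. Unc5b, the vascular netrin receptor (chromosome 10, 60762593 to 60831581, minus strand), had 2814 reads in ECKO and 1715 in WT at E18, and 1956 in ECKO and 1548 in WT at E15, with a mean of 17.5 ± 2.81 CPM per kb. It made up at least 95.6% of the Unc5 reads in each library, while Unc5a had 0, 14, 22 and 45 reads in the 4 libraries in that order.

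Of the 4 ligands that averaged at least 10 CPM per kb, Sema6a, Sema6d and Efna1 are bound to the membrane and Sema3g is secreted. Sema6a, a transmembrane semaphorin that binds class A plexins, had 9739, 9376, 10958 and 10194 reads in ECKO E18, WT E18, ECKO E15 and WT E15, a mean of 64.4 ± 13.1 CPM per kb. Sema6d, its paralogue and a ligand of Plxna1, had 9252, 9164, 7411 and 8977 reads in the same order and a mean of 45.8 ± 6.40 CPM per kb. Together with the other semaphorins listed at both stages they summed to 1001, 1134, 1235 and 1356 CPM in that order of libraries. Efna1, the ephrin anchored by a lipid to the surface of endothelial cells, had 1883, 1319, 1869 and 1732 reads in that order and a mean of 52.0 ± 11.8 CPM per kb. The ranges of Sema6a, Efna1 and Sema6d over the 4 libraries overlapped, at 50.4 to 76.5, 37.8 to 62.5 and 39.8 to 54.7 CPM per kb. Sema3g, a secreted semaphorin of arterial endothelium, had 1338 and 1235 reads in ECKO and WT at E18 and 713 and 732 at E15, a mean of 11.9 ± 2.26 CPM per kb. The arterial ligand Efnb2 had 314, 327, 254 and 234 reads in ECKO E18, WT E18, ECKO E15 and WT E15 and a level of 2.26 ± 0.177 CPM per kb. Efnb3, known as a midline barrier to axons in the spinal cord, had 389, 291, 220 and 407 reads in the same order and a mean of 5.70 CPM per kb.

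The Slits and netrins analysed, which are secreted ligands and do not include Ntn4, were scarce. Slit2 had 138, 174, 225 and 106 reads in ECKO E18, WT E18, ECKO E15 and WT E15, a mean of 0.354 CPM per kb, and Slit3 had 55, 19, 1 and 8 in that order. Ntn1, the founding netrin, had 142, 97, 81 and 149 reads in the same order and a mean of 1.04 CPM per kb, and Ntn5 had 0, 6, 0 and 5. In the vascular pairs with values for both partners, the receptor was the more abundant one per length. Robo4 stood at 190 against 0.354 CPM per kb for Slit2. Ephb4 stood at 30.0 against 2.26 for Efnb2, and Unc5b at 17.5 against 1.04 for Ntn1. In other pairs the ligand was the more abundant partner. Efna1 stood at 52.0 against 15.1 for Epha2, Sema6d at 45.8 against 1.80 for Plxna1, and Sema7a at 7.67 against 0.149 for Plxnc1. Sema4d, at 1.71, lay below its receptor Plxnb1, at 2.63. Summed over all ligands listed at both stages the libraries held 1143, 1261, 1414 and 1539 CPM in ECKO E18, WT E18, ECKO E15 and WT E15, and over all receptors 1736, 2028, 1806 and 1901 CPM. In bulk libraries fewer cells of a type and less RNA per cell cannot be told apart.

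**Figure D2:**
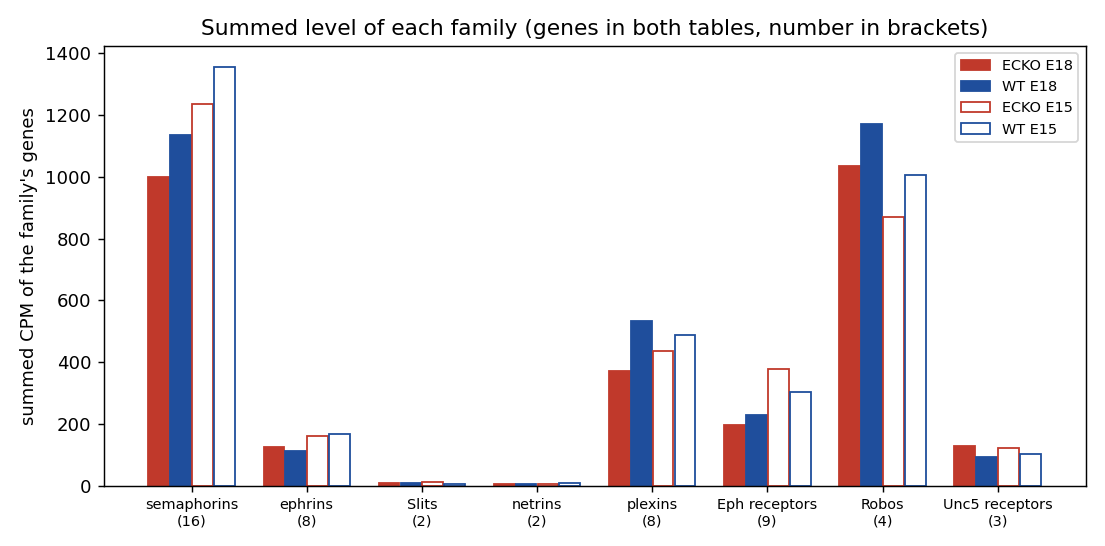
Summed level of each family in CPM, over the genes listed at both stages, with 1 bar per library from left to right ECKO E18, WT E18, ECKO E15 and WT E15. Semaphorins and Robos are the highest families in every library, and Slits and netrins are the lowest.

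The promoters of 5 genes are shown. Robo4, Plxnd1, Ephb4 and Unc5b lead their families in these libraries, and Sema7a had the lowest adjusted p of the guidance genes between the stages. Each is a window of the same length ending just before the annotated start, 5′ to 3′ on the gene's strand, from RefSeq on GRCm38.p6: chr9:37401722-37401896 on the plus strand for Robo4, chr6:115995006-115995180 on the minus strand for Plxnd1, chr5:137349934-137350108 on the plus strand for Ephb4, chr10:60831582-60831756 on the minus strand for Unc5b, and chr9:57939937-57940111 on the plus strand for Sema7a. Capitals mark GGGCGG, the GC box, or CCGCCC, the same letters read on the other strand.
Robo4: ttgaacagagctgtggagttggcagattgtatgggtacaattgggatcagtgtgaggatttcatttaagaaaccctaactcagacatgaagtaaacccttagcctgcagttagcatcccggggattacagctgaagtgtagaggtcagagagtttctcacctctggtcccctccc
Plxnd1: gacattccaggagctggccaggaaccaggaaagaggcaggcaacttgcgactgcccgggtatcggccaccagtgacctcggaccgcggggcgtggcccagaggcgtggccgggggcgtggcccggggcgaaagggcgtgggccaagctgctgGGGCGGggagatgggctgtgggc
Ephb4: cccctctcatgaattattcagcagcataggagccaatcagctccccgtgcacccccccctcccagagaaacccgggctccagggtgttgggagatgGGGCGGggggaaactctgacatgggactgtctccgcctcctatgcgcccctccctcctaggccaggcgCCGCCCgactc
Unc5b: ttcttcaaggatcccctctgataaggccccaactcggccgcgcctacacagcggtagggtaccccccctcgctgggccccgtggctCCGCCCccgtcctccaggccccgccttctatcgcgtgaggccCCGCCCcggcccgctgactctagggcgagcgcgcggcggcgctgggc
Sema7a: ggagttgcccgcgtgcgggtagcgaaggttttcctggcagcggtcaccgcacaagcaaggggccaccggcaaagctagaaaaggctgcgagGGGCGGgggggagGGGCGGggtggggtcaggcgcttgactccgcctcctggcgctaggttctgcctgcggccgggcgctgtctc
The Robo4 window held 0 GC boxes and was 47.4% G or C, whereas Plxnd1 held 1 at 72.0% and Ephb4, Unc5b and Sema7a held 2 each at 65.1%, 73.7% and 70.3%. Over windows of the same length, GGGCGG on either strand was found in 9844 of 32851 promoters (30.0%), with a median of 53.7% G or C. Among the 65 windows of the 49 guidance genes with a promoter in the table it was found in 46 (70.8%), with a median of 65.7% G or C. The Ets core with its flanks, AGGAAG or CGGAAG on either strand, was in none of the 5 windows shown, in 30.8% of all windows and in 21 of 65 (32.3%) of the guidance genes' windows. CGGAAG can share its first letters, CGG, with a GC box, and each motif was counted by itself. A match is a description of the letters and says nothing on binding.

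Between the genotypes at E18, more guidance genes lay below the WT level than above it in the ECKO library, and the genes past 2-fold were all lower. For this comparison the log2 ratio of CPM, with 1 CPM added to each value, was taken for genes with at least 1 CPM in a library and 50 reads over both, and 42 of the 53 listed guidance genes were measured. A gene was called at a 2-fold ratio, which 6.80% of all 12349 genes reached (2.88% higher and 3.92% lower in ECKO). Of the guidance genes, 0 were called higher and 4 lower (9.52%). Their median was -0.20, with 26 of 42 below 0, against a median of 0.00 over all genes, of which 49.7% were below 0. The 95% counting intervals lay wholly below 0 for 22 and wholly above 0 for 6 of the 42, against 3941 below and 4013 above among all genes. Intervals are of the plain ratio, without the added CPM, and can lie outside the log2 ratio printed for genes with few reads.

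The 4 genes lower at E18 were a pair of semaphorins and a pair of receptors. Sema5b, a transmembrane semaphorin, had 32 reads in the ECKO library and 112 in the WT library, or 1.46 and 5.87 CPM (log2 ratio -1.48, interval -2.63 to -1.43). Epha3, a receptor of A-type ephrins, had 55 reads in ECKO and 143 in WT, or 2.5 and 7.5 CPM (log2 ratio -1.28, interval -2.06 to -1.13). Sema4d, the ligand of Plxnb1, had 139 reads in ECKO and 304 in WT, or 6.32 and 15.9 CPM (log2 ratio -1.21, interval -1.63 to -1.04). Robo1 had 128 reads in ECKO and 261 in WT, or 5.82 and 13.7 CPM (log2 ratio -1.11, interval -1.55 to -0.92). These are genes of modest level, all under 16 CPM in both libraries, and with 5 CPM added in place of 1 CPM 0 of the 4 reached 2-fold.

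Among the 9 genes that average at least 10 CPM per kb, Plxnd1 had the lowest and Unc5b the highest ratio at E18. Plxnd1 was at 197 CPM in ECKO and 310 CPM in WT (log2 ratio -0.65, interval -0.71 to -0.60), and Unc5b at 128 CPM in ECKO and 89.9 CPM in WT (log2 ratio 0.50, interval 0.42 to 0.60). Epha2 stood at -0.43 (48.7 CPM in ECKO and 65.9 CPM in WT). Below that level, Plxna2 had a ratio like that of Plxnd1 (74.3 CPM in ECKO and 118 CPM in WT, log2 ratio -0.66, interval -0.76 to -0.58). Robo4 (log2 ratio -0.17), Sema6a (-0.15), Sema6d (-0.19), Sema3g (-0.09) and Ephb4 (0.06) lay closer to 0. Efna1 stood at 0.30 with 85.6 CPM in ECKO and 69.1 CPM in WT. By family, 4 of 6 plexins, 5 of 8 Eph receptors, 3 of 3 Robos and 9 of 13 semaphorins were below 0, against 3 of 7 ephrins. The same counts were found with TMM factors and with DESeq2 size factors. The 38 genes that were not called lay between -0.98 for Sema3f and 0.99 for Efna2.

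At E15 the genes called were 1 ephrin, higher in ECKO, and a semaphorin, a plexin and an Eph receptor, lower in ECKO. Of the 57 listed guidance genes 41 were measured, and 6.87% of all 12633 genes reached 2-fold (3.55% higher and 3.32% lower in ECKO). The share of guidance genes called, 2.44% higher and 7.32% lower, rests on these 4 genes. Efnb1, a transmembrane ephrin encoded on the X chromosome, had 180 reads in the ECKO library and 41 in the WT library, or 11 and 2.64 CPM (log2 ratio 1.72, interval 1.57 to 2.59). At E18 it had 35 reads in ECKO and 21 in WT. With 5 CPM added, Efnb1 (1.07) was still past 2-fold, and of the 3 lower genes only Epha5 was. Epha5, a receptor prominent in neurons, had 0 reads in ECKO and 95 in WT at E15. That is 33.3-fold lower when the ECKO count is set at a floor of 3 reads (upper 95% limit of the log2 ratio -4.73). The reads of Epha5 at E18 were 140 in ECKO and 165 in WT, so the ECKO library at E15 stood apart from the others.

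Plxnc1, the plexin that binds Sema7a, had 8 reads in ECKO and 44 in WT at E15 (log2 ratio -1.36, interval -3.83 to -1.43). At E18 it had 35 reads in ECKO and 1 in WT, below the minimum of 50 reads. Sema5b had 34 reads in ECKO and 104 in WT at E15, or 2.08 and 6.69 CPM (log2 ratio -1.32, interval -2.29 to -1.11). The guidance genes' median at E15 was -0.15 with 25 of 41 below 0, against -0.01 and 50.6% over all genes. All 7 plexins measured were below 0, with a median of -0.24, as were 3 of 3 Robos, while 5 of 8 Eph receptors were above 0. With TMM factors and with DESeq2 size factors these counts were the same. Ephb4 had 219 CPM in ECKO and 134 CPM in WT (log2 ratio 0.70, interval 0.63 to 0.78), and Unc5b 120 CPM in ECKO and 99.6 CPM in WT (log2 ratio 0.26, interval 0.17 to 0.36).

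**Figure D3:**
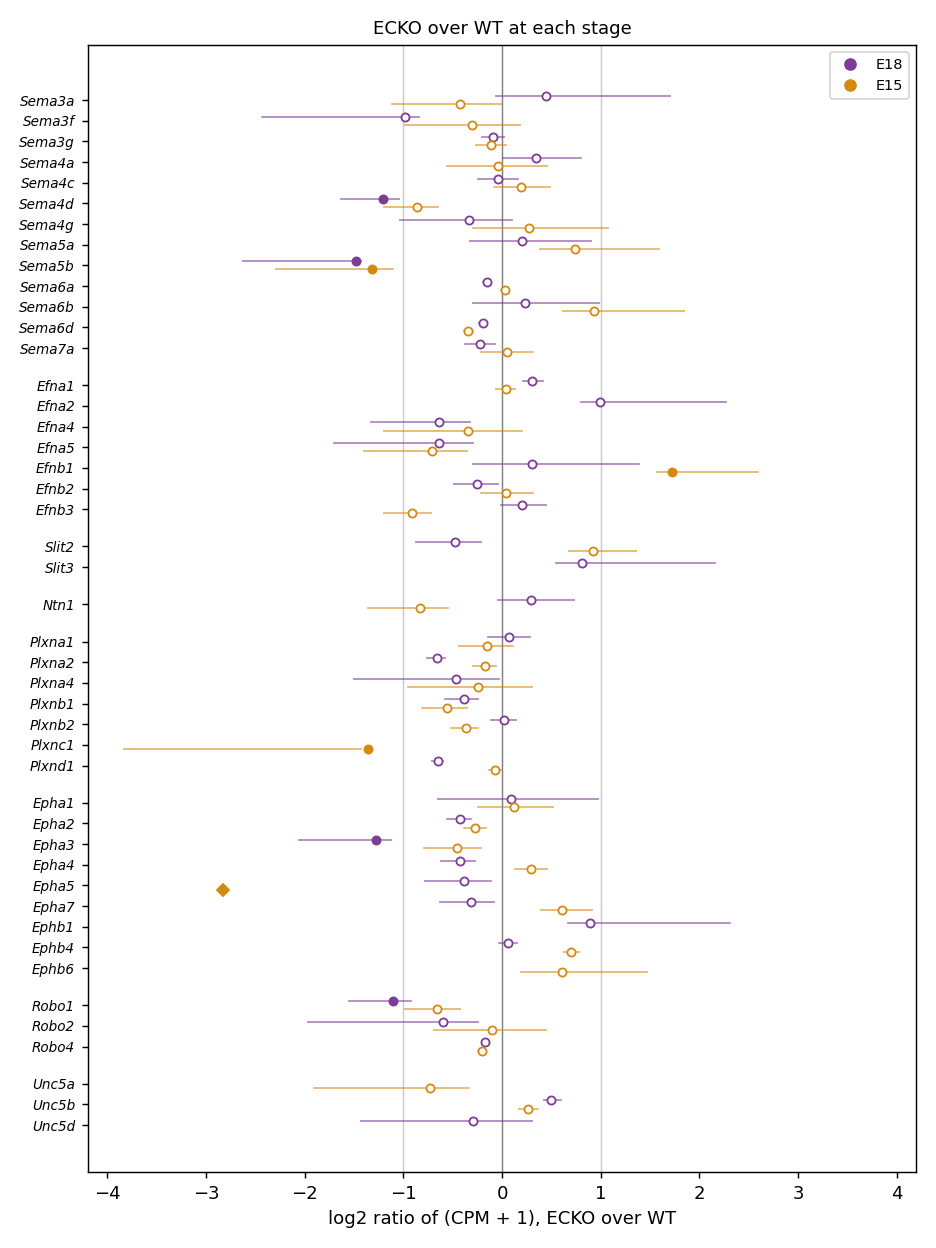
Log2 ratio of (CPM + 1), ECKO over WT, for each measured guidance gene at E18 (purple) and E15 (orange), grouped by family. Filled marks are past 2-fold, lines are 95% counting intervals of the plain ratio, and a diamond marks a ratio with 0 reads in a library. Sema5b is past 2-fold at both stages, at -1.48 and -1.32, and all 7 plexins measured at E15 lie below 0.

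Of the 38 guidance genes measured in both genotype comparisons, which share no library, 17 were below 0 at both stages (44.7%) and 7 above 0 at both (18.4%), against 26.0% and 25.4% of 11784 genes. The counting intervals lay below 0 at both stages for 12 of 38 (31.6%, against 11.1% of all genes) and above 0 at both for 1 (2.63%, against 10.5%). The 12 are the semaphorins Sema4d, Sema5b and Sema6d, the plexins Plxna2, Plxnb1 and Plxnd1, Robo1 and Robo4, Epha2, Epha3 and Epha5, and the ephrin Efna5. The 1 above is Unc5b. Sema5b was the only guidance gene called at both stages. Sema4d and Plxnb1, a ligand and its receptor, were both in the 12: Sema4d had 171 reads in ECKO and 309 in WT at E15 (log2 ratio -0.86), and Plxnb1 had 541 in ECKO and 622 in WT at E18 and 284 in ECKO and 406 in WT at E15 (log2 ratios -0.39 and -0.56).

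Transcript length and the markers of other cells also differed between these libraries. The guidance genes measured at E18 had a median exon length of 7.04 kb, against 4.47 kb over all genes. At E18 the 5369 genes with at least 5 kb of exon had a median ratio of -0.06 and the 6968 shorter genes 0.05, while the 29 guidance genes of at least 5 kb had -0.32 and the shorter ones 0.06. At E15 the corresponding medians were -0.03 and 0.02 over all genes and -0.20 and 0.04 over guidance genes. Neuronal markers summed to 59.6 CPM in ECKO and 71.3 CPM in WT at E18, and to 73.4 CPM in ECKO and 151 CPM in WT at E15. Of the neuronal markers 11 of 14 measured were below 0 at E18 (median -0.35) and 15 of 15 at E15 (median -1.04), where 8 were called lower. Snap25 and Bcl11b were the neuronal markers at 0 reads, both in ECKO E18. Mural markers, led by Rgs5, summed to 11677 CPM in ECKO and 9355 CPM in WT at E18 and to 4893 CPM in ECKO and 7332 CPM in WT at E15, with 3 of 10 and 8 of 9 below 0. Microglial and macrophage markers summed to 153 CPM in ECKO and 83.4 CPM in WT at E18 and to 314 CPM in ECKO and 657 CPM in WT at E15, with 1 of 10 and 10 of 11 below 0. Fibroblast and meningeal markers summed to 234 CPM in ECKO and 222 CPM in WT at E18 (3 of 6 below 0, median 0.15) and to 160 CPM in ECKO and 319 CPM in WT at E15 (4 of 5 below 0, median -0.75). Among these Dcn was at 0 reads in WT E18, and Pdgfra in both ECKO libraries. Astrocyte markers summed to 479 CPM in ECKO and 502 CPM in WT at E18 (4 of 6 below 0, median -0.61) and to 583 CPM in ECKO and 496 CPM in WT at E15 (0 of 3 below 0, median 0.21). Most of these sums was Gja1, at 441 CPM in ECKO and 438 CPM in WT at E18. At E15 Gja1 was at 568 CPM in ECKO and 481 CPM in WT. Markers of the oligodendrocyte lineage summed to 143 CPM in ECKO and 190 CPM in WT at E18 (2 of 2 below 0) and to 79.6 CPM in ECKO and 150 CPM in WT at E15 (1 of 1 below 0). Most of these sums was Cspg4, which is also on the mural list. Cspg4 was at 133 CPM in ECKO and 170 CPM in WT at E18, and at 79.6 CPM in ECKO and 149 CPM in WT at E15. Erythroid markers were below 0 in 5 of 7 at E18 (median -0.52) and 3 of 7 at E15, and neural progenitor markers in 2 of 5 and 3 of 5. The part of length and of these cells in the guidance genes' ratios was not tested.

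A test that pooled the 4 libraries, with a term for each of stage and genotype and the stages serving as replicates of the genotype, called 0 guidance genes for genotype. It was edgeR's quasi-likelihood test with Benjamini-Hochberg adjustment over 13416 genes, of which 43 were guidance genes and 3 in all (0.0224%) passed an adjusted p of 0.05. DESeq2 with the same terms also called 0 guidance genes, and 0.328% of all genes. At an unadjusted p under 0.05 edgeR gave 4 of the 43, beside 5.12% of all genes. DESeq2 gave 2 of the 43, beside 4.5%, and edgeR on genes with at least 5 CPM in 2 libraries gave 9 of 27, beside 6.96%, again with 0 past the adjusted p. The 4 were Sema4d (log2 -1.13, adjusted p = 0.836 in edgeR), Robo1 (log2 -0.96, adjusted p = 0.882), Sema5b (log2 -1.84, adjusted p = 0.882) and Unc5b (log2 0.39, adjusted p = 0.955). Sema4d, Robo1 and Sema5b were lower and Unc5b was higher in ECKO at both stages. The fit has 1 residual degree of freedom, so an effect particular to a stage counts as spread.

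Between the stages in the ECKO embryos, Eph receptors made up 7 of the 13 differences past 2-fold and 9 of the 42 genes measured. All 52 guidance genes listed at both stages could be compared, 42 were measured, and 15.3% of all 12465 genes reached 2-fold (4.34% higher and 10.9% lower at E18). Of the guidance genes 4 were called higher and 9 lower at E18 (9.52% and 21.4%), with a median of -0.37 against -0.10 over all genes. The medians were -0.12 and -0.09 for genes with at least 5 CPM in a library, and -0.12 and -0.13 without a filter. With TMM factors, which bring the median of all genes to 0.01, 5 were called higher and 5 lower, and with 5 CPM added 1 and 3. Past 2-fold, 6 of 19 receptors and 3 of 23 ligands were called lower. Below 0 were 12 of 19 receptors and 14 of 23 ligands. The difference between receptors and ligands was not tested.

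Of 9 Eph receptors measured in ECKO, 5 were called lower and 2 higher at E18, against 1 and 0 of 7 in WT. With TMM factors or DESeq2 size factors the lower ones in ECKO were 3, Epha1, Epha3 and Ephb6. Epha1 had 32 reads at E18 and 125 at E15 (1.46 and 7.66 CPM, log2 ratio -1.82, interval -3.0 to -1.83). Its exons overlap those of Zyx on the opposite strand over 6.01% of their bases. Epha3 had 55 reads at E18 and 171 at E15 (log2 ratio -1.71, interval -2.53 to -1.62), with 143 at E18 and 230 at E15 in WT. Ephb4 had 103 CPM at E18 and 219 CPM at E15 (log2 ratio -1.08, interval -1.16 to -1.01), or -0.96 with TMM factors. Epha7, an ephrin receptor that occurs in a form lacking the kinase, had 213 reads at E18 and 333 at E15 (log2 ratio -1.0, or -0.90 with TMM factors), with 236 at E18 and 202 at E15 in WT. Ephb6, which lacks kinase activity, had 0 reads at E18 and 63 at E15, with 13 at E18 and 34 at E15 in WT. In ECKO that is 28.3-fold lower with the E18 count set at a floor of 3 reads (upper interval limit of the log2 ratio -4.48). Epha5 had 140 reads at E18 and 0 at E15, 34.6-fold higher with the E15 count set at that floor. The lower interval limit of its log2 ratio was 4.80. The ECKO E15 library is the same that lacked Epha5 in the comparison of genotypes. Ephb1, a receptor of B-type ephrins, had 57 reads at E18 and 4 at E15 (log2 ratio 1.53, interval 1.97 to 5.33), with 18 at E18 and 4 at E15 in WT.

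The other calls in ECKO were spread over ligands and Robos. Efnb1 had 35 reads at E18 and 180 at E15 (1.59 and 11 CPM, log2 ratio -2.21, interval -3.36 to -2.26), and the E15 library is again the one in which it was high against WT. Slit2 had 138 reads at E18 and 225 at E15 (log2 ratio -1.02, interval -1.45 to -0.82, or -0.92 with TMM factors), whereas Slit3 had 55 reads at E18 and 1 at E15 (log2 ratio 1.72, interval 2.81 to 10.68). Robo2 had 19 reads at E18 and 54 at E15 (log2 ratio -1.21), with 35 and 56 in the WT libraries at E18 and E15. Sema3f, which signals through the neuropilin Nrp2, had 20 reads at E18 and 47 at E15 (log2 ratio -1.02, or -0.95 with TMM factors), with 53 at E18 and 59 at E15 in WT. Efna2 had 72 reads at E18 and 15 at E15 (log2 ratio 1.16, interval 1.02 to 2.74), with 22 at E18 and 28 at E15 in WT. Of these 6 genes, 4 had under 100 reads in each library.

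In the WT embryos 4 of 41 guidance genes were called between the stages, 1 higher (2.44%) and 3 lower (7.32%) at E18. Over all 12515 genes 10.7% reached 2-fold, 3.08% higher and 7.58% lower, so the guidance genes' shares were near those of all genes. Sema7a, a semaphorin anchored by a lipid that binds Plxnc1 and integrins, had 715 reads at E18 and 241 at E15 (37.5 and 15.5 CPM, log2 ratio 1.22, interval 1.06 to 1.49). In ECKO it had 706 reads at E18 and 262 at E15 (32.1 and 16 CPM, log2 ratio 0.96, interval 0.79 to 1.21), so both E18 libraries lay above both E15 libraries. Epha1 had 25 reads at E18 and 108 at E15 (log2 ratio -1.78, interval -3.10 to -1.77), and was past 2-fold between the stages in both genotypes, as was Sema7a with TMM factors or DESeq2 size factors. Sema3a, a secreted repellent of axons, had 18 reads at E18 and 67 at E15 (log2 ratio -1.45), with 36 at E18 and 48 at E15 in ECKO. Unc5a had 14 reads at E18 and 45 at E15 (log2 ratio -1.17; with 5 CPM added 0 of the 3 lower genes reached 2-fold), with 0 at E18 and 22 at E15 in ECKO.

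**Figure D4:**
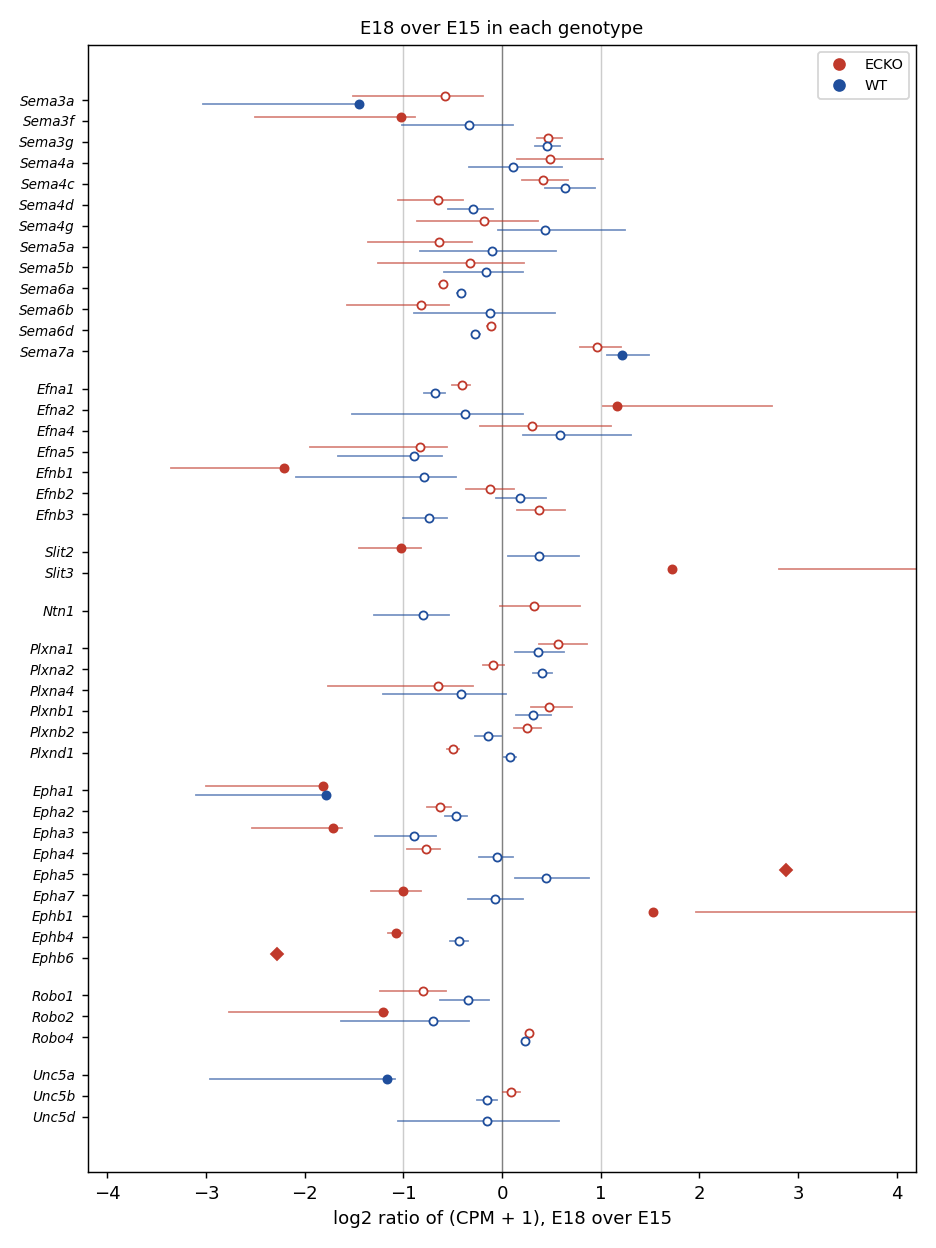
Log2 ratio of (CPM + 1), E18 over E15, for each measured guidance gene in ECKO (red) and WT (blue), grouped by family, with marks and lines as in the plot of the genotype ratios and intervals clipped at the frame. Sema7a lies at 0.96 and 1.22 and Epha1 at -1.82 and -1.78 in ECKO and WT.

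Among the 39 guidance genes measured between the stages in both genotypes, 20 were lower at E18 in both (51.3%, against 42.2% of 11997 genes) and 9 higher in both (23.1%, against 23.5%). Of the abundant genes, Robo4 was higher at E18 (log2 ratios 0.27 in ECKO and 0.23 in WT), as was Sema3g (0.47 in ECKO and 0.45 in WT). Sema6a (-0.60 in ECKO and -0.42 in WT), Efna1 (-0.41 in ECKO and -0.68 in WT) and Epha2 (-0.63 in ECKO and -0.47 in WT) were lower. Plxnd1 was at -0.50 in ECKO and 0.08 in WT, and Unc5b at 0.09 in ECKO and -0.15 in WT. These are ratios of 2 libraries, and with TMM factors each is higher by about the shift of the median of all genes, -0.10 in ECKO and -0.11 in WT before and 0.01 and 0.00 after. In the edgeR test with genotype and stage as terms 0 guidance genes passed for stage, beside 1.34% of all genes, while 11 of 43 had an unadjusted p under 0.05, beside 16.7% of all genes. Sema7a came nearest (log2 1.25, adjusted p = 0.0596), before Epha1 (log2 -2.28, adjusted p = 0.137) and Ephb4 (log2 -0.65, adjusted p = 0.149). DESeq2 called 5.34% of all genes for stage, among them Sema7a, which rose (adjusted p = 0.0167), and Ephb4, which fell (adjusted p = 0.0426).

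The marker lists moved between the stages too. Mural markers listed at both stages summed to 11677 CPM at E18 and 4893 CPM at E15 in ECKO and to 9355 CPM at E18 and 7332 CPM at E15 in WT. Microglial markers summed to 153 CPM at E18 and 314 CPM at E15 in ECKO and to 83.4 CPM at E18 and 657 CPM at E15 in WT. Of the microglial markers 8 of 10 measured were called lower at E18 in each genotype. Neuronal markers were below 0 in 6 of 10 measured in ECKO and 14 of 16 in WT. The part of these cells in the guidance genes' stage ratios was not tested.

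Genes that work with the guidance receptors are given beside them by 2 lists. A list of 25 coreceptors and related surface molecules, with Nrp1, Nrp2 and Dcc, had 16 measured between the genotypes, 1 higher and 1 lower at E18 (median 0.00) and 0 higher and 2 lower at E15 (median -0.27). Nrp1, a coreceptor of secreted semaphorins and of VEGF, had 14422, 12364, 9679 and 10673 reads in ECKO E18, WT E18, ECKO E15 and WT E15. A list of 65 signalling genes had 60 measured at E18, 2 higher and 1 lower in ECKO (median 0.05), and 61 at E15, 2 higher and 2 lower (median -0.06). Over all genes 2.88% were higher and 3.92% lower in ECKO at E18, and 3.55% higher and 3.32% lower at E15. At E18, Pak1, a kinase activated by Rac, had 77 reads in ECKO and 5 in WT, and Lrrc4c, a partner of netrin G proteins, had 316 in ECKO and 113 in WT. Cntn2, a contactin of axons, had 9 reads in ECKO and 45 in WT. Vav3, the signalling gene called lower, had 36 in ECKO and 115 in WT.

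At E15, Rac1, the small GTPase downstream of plexins, had 8337 reads in ECKO and 2411 in WT (log2 ratio 1.71, interval 1.65 to 1.78), and Arhgap39, whose fly counterpart acts with Robo receptors, had 180 in ECKO and 46 in WT. Dpysl5, of the collapsin response mediator family, had 25 reads in ECKO and 195 in WT, and Lrrc4, a surface protein of synapses, had 16 in ECKO and 143 in WT. Between the stages the coreceptors had 3 higher and 2 lower of 16 at E18 in ECKO and 0 higher and 1 lower of 16 in WT. The signalling genes had 4 higher and 7 lower of 61 in ECKO and 0 higher and 7 lower of 60 in WT. Over all genes 4.34% were higher and 10.9% lower at E18 in ECKO, and 3.08% higher and 7.58% lower in WT. Rac1 was among the lower genes in both genotypes, with 2105 reads at E18 and 8337 at E15 in ECKO and 1027 at E18 and 2411 at E15 in WT (log2 ratios -2.40 and -1.51). In ECKO, Rgmb, a repulsive guidance molecule, had 34 reads at E18 and 195 at E15, Dpysl5 had 202 at E18 and 25 at E15, and Lrrc4 had 130 at E18 and 16 at E15. In WT, Pak1 had 5 reads at E18 and 81 at E15, Dpysl3 had 85 at E18 and 227 at E15, and Rac2 had 58 at E18 and 156 at E15.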

How the data were processed

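RNA of 4 brain endothelial libraries, 1 per stage and genotype, was sequenced on an Illumina instrument. The authors deposited a table per stage with raw read counts per Ensembl gene in the ECKO and WT libraries, per the file headers. HTSeq 0.6.0, TopHat2 2.0.12, Bowtie2 2.2.3 and the build mm9 are listed, with no roles, in the submitters' processing notes, but the deposited gene coordinates are those of GRCm38 and are read as such. The design text speaks of triplicates, and the 4 libraries analysed here hold 1 per group.

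Counts were scaled to library totals. Ratios used log2 of CPM plus 1, for genes that reached 1 CPM in either library and 50 reads over both, and 2-fold was the threshold. Comparisons between stages used genes in both tables. Each ratio of scaled counts has an exact 95% interval (Clopper-Pearson), and intervals and the floor of 3 reads cover counting error only. The sources used here mention no molecular identifiers. Levels were divided by the union of GENCODE M21 exons. The test across libraries used edgeR 4.0.16 (quasi-likelihood, TMM factors, at least 1 CPM in 2 libraries, prior degrees of freedom 6.14, common dispersion 0.111). DESeq2 1.42.0 was the alternative, both in R 4.3.3. The edgeR test was run on simulated data with changes well past 2-fold in genes of at least 5 CPM. That run does not show how often the test finds smaller changes. The test measures the spread left by stage and genotype, not that between embryos. Ratios and intervals were computed in Python 3.11.15 with scipy 1.17.1.

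Values in every library are given for genes past 2-fold in a comparison or past an adjusted p of 0.05. The same holds for the 2 most abundant genes of each family and for the vascular pairs, apart from Sema3e and Ntn4. Of the wider lists, at most 4 called genes per comparison are given. Other genes named, such as Plxnb1, Sema3g and Nrp1, and the length split were chosen after their values were seen. The guidance genes, the gene lists and the tests were chosen with earlier results of these data known.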

Additional observations from a re-analysis of the deposited data

Results flagged for a closer look

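For 3 guidance genes the counting intervals of the ratio of ECKO to WT lay on opposite sides of 0 at the stages, and the difference between the stages was not tested. Epha4, a receptor of both ephrin classes, had log2 ratios of -0.43 at E18 (522 reads in ECKO and 616 in WT) and 0.29 at E15 (673 reads in ECKO and 522 in WT). Epha7 had -0.32 at E18 (213 reads in ECKO and 236 in WT) and 0.61 at E15 (333 in ECKO and 202 in WT). Slit2 had -0.48 at E18 (138 reads in ECKO and 174 in WT) and 0.92 at E15 (225 in ECKO and 106 in WT). Of 38 guidance genes measured at both stages these 3 are 7.89%, against 18.5% of all genes.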

How the results depend on the processing

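Each library stands alone in its group, so none was left out and a ratio has no replicate error. No paired analysis was possible because no replicate numbers pair the groups, beyond the fit with a term for stage, which sets ECKO against WT within each stage. Of the 25 ratios past 2-fold, 10 had under 100 reads in both libraries and 19 in at least 1. With TMM factors 21 of the 25 were still past 2-fold, with DESeq2 size factors 21 and with 5 CPM added 7. All kept their sign, which added CPM alone cannot turn. The cause of the changes below was not tested, apart from what each setting itself removes.

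At E18, ECKO against WT, the 0 genes called higher became 1 with TMM factors, 1 with DESeq2 size factors, 1 without a filter and 3 at a 1.5-fold line, and the 4 called lower became 0 with 5 CPM added, 10 at a 1.5-fold line and 2 at 200 reads over both libraries (a filter chosen after seeing the data). At E15 the 1 higher became 2 without a filter and 7 at a 1.5-fold line, and the 3 lower became 1 with 5 CPM added, 9 at a 1.5-fold line and 0 at 200 reads. Between the stages in ECKO the 4 higher became 1 with 5 CPM added, 1 at 5 CPM in a library and 0 at 200 reads, and the 9 lower became 5 with TMM factors, 5 with DESeq2 size factors, 3 with 5 CPM added, 18 at a 1.5-fold line and 5 at 200 reads. In WT the 1 higher became 3 at a 1.5-fold line, and the 3 lower became 0 with 5 CPM added, 1 at 5 CPM in a library, 10 at a 1.5-fold line and 0 at 200 reads. For the stage test, DESeq2 gave 1 that rose and 1 that fell, and a filter of 5 CPM in 2 libraries gave 1 that rose (Sema7a, adjusted p = 0.00738) and 2 that fell (Ephb4, 0.0287, and Epha1, 0.0291), where edgeR at 1 CPM gave 0. Over all genes, 5 CPM added left 42 higher and 82 lower at E18 and 163 and 75 at E15 between the genotypes, and 178 and 601 in ECKO and 143 and 286 in WT between the stages. TMM factors gave 673 higher and 1171 lower in ECKO and 501 and 760 in WT between the stages. With the longest transcript as length, 8 of 8 families kept their most abundant gene, and 9 genes again averaged at least 10 CPM per kb.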
